A study of Mus musculus with 6 samples.

Results

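The Zic genes encode a small family of zinc finger transcription factors. The members measured here were Zic1, Zic2, Zic4 and Zic5, which are 4 of the 19938 genes of the array table. A member is a probe set, the array's unit of measurement for a transcript, to which the platform annotation gives 1 gene symbol, and that symbol is Zic1, Zic2, Zic4 or Zic5. In all, 6 probe sets carried such a symbol, because Zic4 and Zic5 had more than 1. For those genes the row was chosen by its mean over the 6 arrays, the brighter being used, and the other one is described beside it. The family itself was proposed with the knock-out against wild-type differences known, so the members' values in that comparison are a description and carry no test.

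The study asked how loss of Lgi1, which encodes a secreted neuronal protein, changes the transcripts of neural precursor-like cells. The first group comprised 3 Lgi1 knock-out samples, in which the gene was homozygously deleted, and the second comprised 3 Lgi1 wild-type samples. Both groups were immortalized cells from the brains of C57BL/6J mouse embryos at day 13.5, grown in RPMI with 1% FBS, and each sample was hybridised to its own 1-colour Mouse Gene 1.0 ST array. The labels call the samples biological replicates without saying how many embryos or lines they came from, so the spread between them may be technical.

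Zic proteins bind DNA through C2H2 zinc fingers related to those of the Gli proteins, the nuclear effectors of Hedgehog signalling. In the vertebrate embryo Zic genes are known for their roles in neurulation, in the dorsal neural tube and neural crest, in cerebellar granule cell precursors and in the meninges. Zic2 loss causes holoprosencephaly in mice and people, and joint deletion of ZIC1 and ZIC4 has been linked to a cerebellar malformation in people. The members lie in the mouse genome in neighbouring pairs, Zic1 with Zic4 on chromosome 9 and Zic5 with Zic2 on chromosome 14.

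The medians of the 6 arrays lay between 6.36 and 6.41 on the log2 scale, and the number of arrays limits the precision of every value. As a background level, the 95th percentile over 1190 receptor genes of the olfactory and vomeronasal families, silent outside the nose in most tissues, was taken, at 5.67. Lgi1 was under that level in both genotypes (means of 4.55 in knock-out and 4.77 in wild-type cells), so it did not check the labels. The genotypes also differed in sex chromosome genes. Xist, the RNA of the inactive X chromosome, averaged 12.44 in knock-out and 4.64 in wild-type cells, and the Y-linked gene Uty averaged 4.82 in knock-out and 10.03 in wild-type cells. Lgi1 genotype and the embryo or line of origin cannot be told apart in this design. In all, 31.6% of genes passed in either direction (limma, adjusted p under 0.05), 14% as higher and 17.6% as lower in knock-out cells.

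On the rows used, Zic1, Zic2 and Zic5 were higher in knock-out cells, by 1.60 to 5.13 on the log2 scale. The other Zic5 row was higher by 0.71. Zic4 lay at background level in both genotypes. Zic1, Zic2 and Zic5, on the rows used, lay under the background level on every wild-type array. By the fit over all genes, 3 of the 4 members were past the threshold as higher on these rows, where 14% of all genes were. In a fit with the other rows of Zic4 and Zic5, Zic4 was past it too, though under background on every array. With the rows used, the 3 knock-out arrays lay above the 3 wild-type arrays for Zic1, Zic2 and Zic5. They did so for 18.5% of all genes (42.3% with either direction). Since the members were chosen with this contrast in view, these counts describe the family and nothing is read from them.

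**Figure D1:**
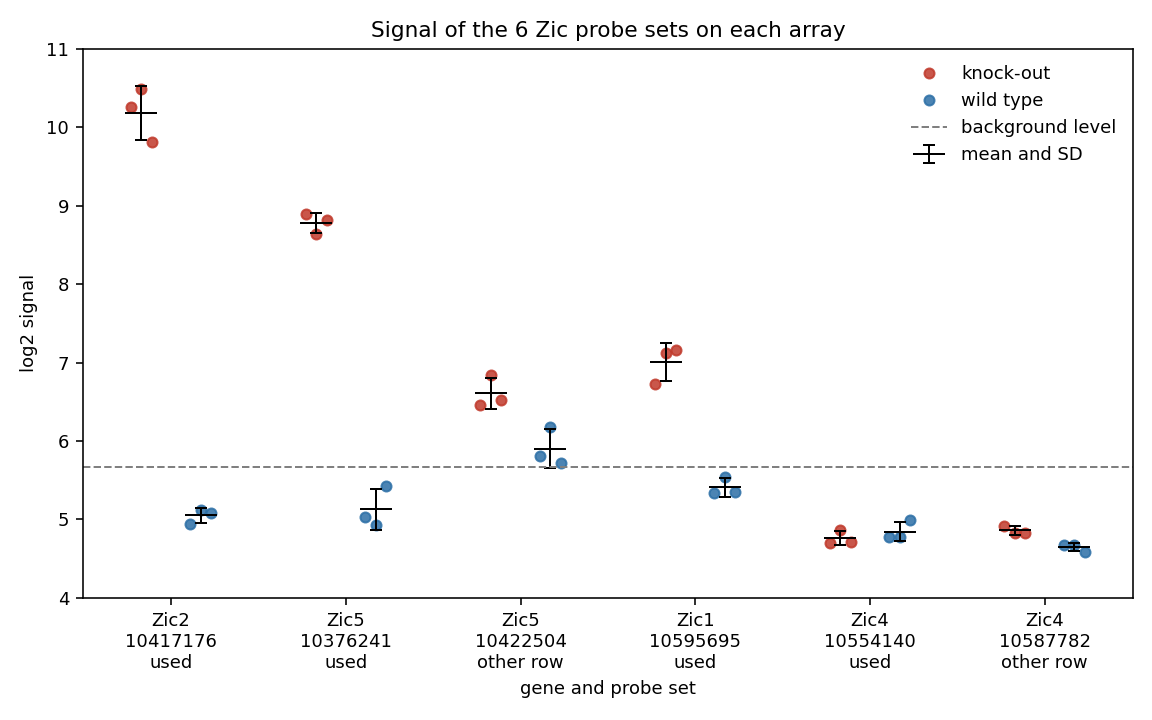
Log2 signal (vertical axis) of the 6 Zic probe sets on the 3 knock-out (left) and 3 wild-type arrays (right), with the mean and SD and the background level of 5.67 as a dashed line. The knock-out arrays of Zic2 lie between 9.81 and 10.48, all its wild-type arrays lie under background, and both Zic4 probe sets lie under background in both genotypes.

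Zic2, a regulator of forebrain midline development and of the retinal axons that stay on their own side of the brain, showed the widest separation of the family. Its log2 signals (probe set 10417176, chromosome 14) were 10.26, 10.48 and 9.81 on the knock-out arrays and 4.95, 5.12 and 5.09 on the wild-type arrays. No wild-type array reached the background level, and the lowest knock-out array stood 4.69 above the highest wild-type array. The means were 10.18 ± 0.34 in knock-out and 5.05 ± 0.09 in wild-type cells (SD, n = 3 each), a log2 difference of 5.13 with an SE of 0.14, or 35.0-fold. Because the wild-type signal was background, that fold describes the arrays and does not measure how little Zic2 RNA wild-type cells held. Measured from the background level, the knock-out mean was 4.51 higher. The difference ranked 28 among the rises of all 19938 genes. Knock-out replicate 3 was the lowest of its group, 0.38 below the group's mean, which is small beside the distance to the wild-type arrays.

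Zic5, which acts in neural tube closure and neural crest development in mice, was measured by a pair of probe sets that gave differences of unequal size. The one used (10376241) read 8.90, 8.64 and 8.81 on the knock-out arrays and 5.03, 4.93 and 5.42 on the wild-type arrays. All knock-out arrays were far above background and all wild-type arrays under it. Its means were 8.78 ± 0.13 in knock-out and 5.13 ± 0.26 in wild-type cells (SD, n = 3 each), a log2 difference of 3.66 with an SE of 0.12, or 12.6-fold. Measured from the background level, the knock-out mean was 3.11 higher.

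The other Zic5 probe set (10422504) read 6.46, 6.84 and 6.52 on the knock-out arrays and 5.81, 6.18 and 5.72 on the wild-type arrays. Here every array of both genotypes was above the background level, and the groups were separated by only 0.28. The means were 6.61 ± 0.20 in knock-out and 5.90 ± 0.25 in wild-type cells (SD, n = 3 each), a log2 difference of 0.71, or 1.63-fold. The annotation gives the same RefSeq transcript to both. In the deposited table, 91.6% of 21696 rows with 1 gene are preceded and followed by rows of genes on the gene's own chromosome. The second Zic5 row follows this pattern, standing between Gm5089 and Ggact of chromosome 14, whereas the one used stands between Gm12238 and Gria1 of chromosome 11. Without probe positions in the sources used here, which row reads Zic5 RNA alone was not tested. Both rows put knock-out cells higher, and the size of the Zic5 difference depends on the row, from 0.71 to 3.66.

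Zic1, which with Zic4 acts in cerebellar development and keeps granule cell precursors proliferating, differed by less. It read 6.72, 7.13 and 7.17 on the knock-out arrays and 5.33, 5.55 and 5.35 on the wild-type arrays (probe set 10595695, chromosome 9). The knock-out arrays were moderately above background and the wild-type arrays just under it, with a gap of 1.18 between the groups. The means were 7.01 ± 0.24 in knock-out and 5.41 ± 0.12 in wild-type cells (SD, n = 3 each), a log2 difference of 1.60 with an SE of 0.11, or 3.02-fold. Measured from the background level, the knock-out mean was 1.33 higher. Zic1 ranked 350 among the rises of all genes. Knock-out replicate 1, the lowest for Zic1, was not the lowest for Zic2, so the knock-out arrays did not keep 1 order across the family.

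Zic4 gave no signal above background. The probe set used (10554140) read 4.71, 4.86 and 4.72 on the knock-out arrays and 4.77, 4.77 and 4.99 on the wild-type arrays. These groups overlap, and the log2 difference was −0.08 with an SE of 0.08. The other probe set (10587782) read 4.92, 4.83 and 4.83 on the knock-out arrays and 4.68, 4.68 and 4.59 on the wild-type arrays. There the knock-out arrays were all higher, by a log2 difference of 0.21, and still all under the background level. The second row is annotated with the RefSeq transcript of Zic4 and stands between Adamts7 and Plscr1 of chromosome 9. The one used is annotated with cDNA clones alone and stands between genes of chromosomes 7 and 15. With both rows at background, a direction for Zic4 is not given. Zic1 and Zic4 are neighbours whose gene models overlap by 138 bases in GRCm38.p6, yet only Zic1 was above the background level in knock-out cells.

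**Figure D2:**
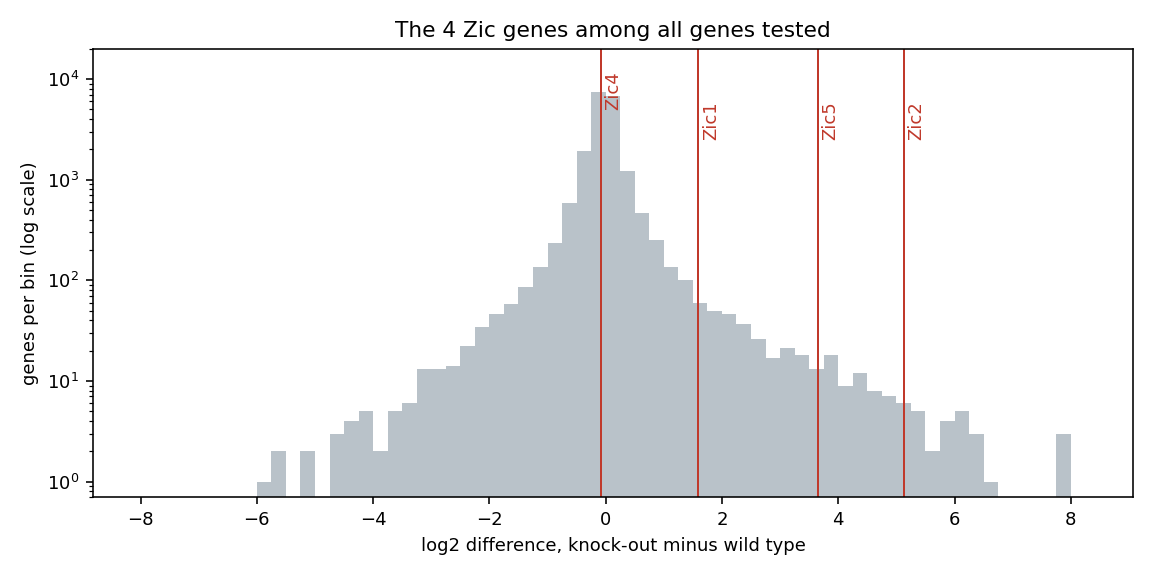
Number of genes per bin (log scale) against the log2 difference, knock-out minus wild type, for all 19938 genes, with the 4 Zic genes marked. Zic4 lies at the centre at −0.08, and Zic1 at 1.60, Zic5 at 3.66 and Zic2 at 5.13 lie in the upper tail. The other Zic5 row, not drawn, differed by 0.71.

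Promoter sequence was at hand for 3 of the 4 members, from RefSeq with the build GRCm38.p6, and is shown because the members that share a chromosome differ in signal. Each stretch runs from 250 bases before to 50 bases after the annotated start, 5′ to 3′ on the gene's own strand, with CG dinucleotides in capitals. Zic1 lies at chr9:91365719-91366018 on the minus strand, Zic4 at chr9:91368722-91369021 on the plus strand and Zic5 at chr14:122465609-122465908 on the minus strand.
Zic1: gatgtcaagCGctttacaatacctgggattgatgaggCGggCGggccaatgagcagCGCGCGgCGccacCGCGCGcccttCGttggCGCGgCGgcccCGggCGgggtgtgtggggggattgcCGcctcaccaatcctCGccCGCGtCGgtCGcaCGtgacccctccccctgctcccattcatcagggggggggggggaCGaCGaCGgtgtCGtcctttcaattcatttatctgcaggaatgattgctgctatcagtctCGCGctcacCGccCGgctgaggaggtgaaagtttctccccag
Zic4: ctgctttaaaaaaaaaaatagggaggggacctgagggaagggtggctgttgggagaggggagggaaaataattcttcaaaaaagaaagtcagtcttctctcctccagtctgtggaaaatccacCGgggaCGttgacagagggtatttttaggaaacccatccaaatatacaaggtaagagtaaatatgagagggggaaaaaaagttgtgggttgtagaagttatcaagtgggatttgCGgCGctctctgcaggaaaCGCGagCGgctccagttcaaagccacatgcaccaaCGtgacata
Zic5: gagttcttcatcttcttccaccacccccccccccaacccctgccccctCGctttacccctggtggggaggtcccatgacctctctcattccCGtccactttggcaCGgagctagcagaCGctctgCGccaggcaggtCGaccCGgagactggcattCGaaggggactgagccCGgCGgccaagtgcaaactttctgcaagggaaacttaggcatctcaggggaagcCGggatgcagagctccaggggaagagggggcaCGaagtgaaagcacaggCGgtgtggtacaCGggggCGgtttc

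The Zic1 stretch holds 31 CG dinucleotides, Zic5 holds 15 and Zic4 holds 8, against a median of 7 over 32841 promoter stretches of the same length. The GC content is 65.3% for Zic1, 62.7% for Zic5 and 46.0% for Zic4, with a median of 52.7%. Short motifs were searched by their exact letters on both strands. The CCAAT box (CCAAT), found in 37.4% of all stretches, occurs 2 times in Zic1 and not in Zic4 or Zic5. The GC box (GGGCGG), found in 35.7%, occurs 3 times in Zic1, 1 time in Zic5 and not in Zic4. The cores CAGCAGG (ZIC), GGGTGGTC (GLI), ACAATGG (SOX) and TAATTA (homeodomain), found in 10.5%, 0.807%, 3.66% and 5.29% of stretches, occur in none of the 3. No matches overlapped. A match is a description of the letters and not a bound site.

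The genes beside the Zic5 and Zic2 pair were mostly higher in knock-out cells as well, though by far less than Zic2 and the Zic5 row used. Of the 10 nearest tested genes on chromosome 14, 5 on each side, 6 rose and 1 fell. Pcca, a subunit of propionyl-CoA carboxylase and the neighbour of Zic2, read 8.91, 8.88 and 8.87 on the knock-out arrays and 7.86, 7.96 and 7.83 on the wild-type arrays. That gene rose by 1.00 (SE 0.06, limma adjusted p = 5.8e-07). Ggact (+0.92), the mitochondrial lyase gene Clybl (+0.80), Tmtc4 (+0.76), Tm9sf2 (+0.52) and 4930594M22Rik (+0.49) rose, and the sodium leak channel gene Nalcn fell by 0.50. Gm5089, a non-coding gene next to Zic5, was at 5.37 in knock-out and 5.22 in wild-type cells, both under background, and did not pass (adjusted p = 0.18).

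Genes all along chromosome 14 were more often higher than lower in knock-out cells. Of its 699 tested genes 287 rose and 32 fell, or 45.6% in all. Among its 341 genes brighter than the median gene, the median log2 difference was 0.41, against −0.04 for such genes of all chromosomes. Chromosome 14 had the highest such median of the 19 autosomes, the X and the Y. When those 341 genes were taken in order along the chromosome in 5 parts, the medians were 0.45, 0.40, 0.42, 0.33 and 0.43, the last being the part with Zic2. The chromosome's shift is thus smaller than the Zic2 difference and smaller than that of the Zic5 row used. The Zic5 row that stands among genes of chromosome 14 (0.71) lay within the range of the neighbours that rose, 0.49 to 1.00. Over all its tested genes, many of them dim, the chromosome's median was 0.115, less than the 0.41 of the brighter genes. After subtracting such medians over all genes of each chromosome, the log2 differences of Zic2 and the Zic5 row used were 5.02 and 3.54. The median of the brighter genes was not subtracted.

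**Figure D3:**
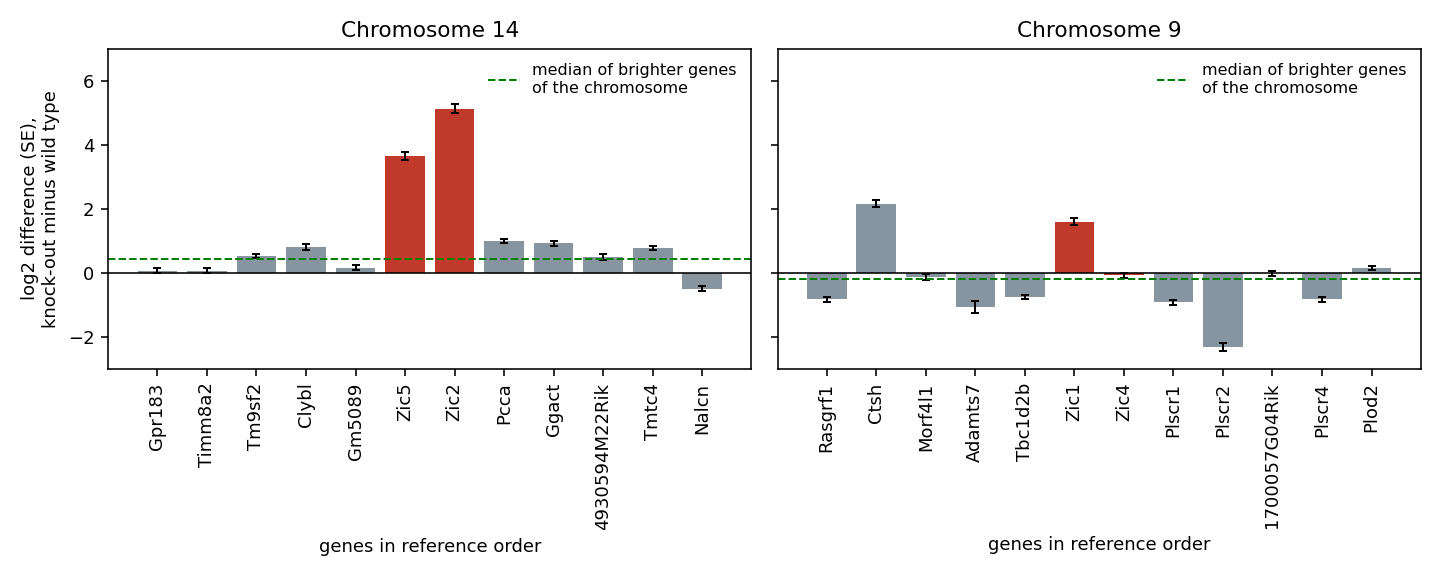
Log2 difference, knock-out minus wild type (bars, with the moderated SE), of the 5 nearest tested genes on each side of the Zic5 and Zic2 pair (left) and of the Zic1 and Zic4 pair (right), with the median of the chromosome's brighter genes as a dashed line. Zic2 and the Zic5 row used stand above neighbours that differ by 1.00 or less. The other Zic5 row, not drawn, differed by 0.71, within the range of those neighbours. Zic1 at 1.60 stands among neighbours of which 6 fell and 1, Ctsh, rose by 2.16.

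Around Zic1 and Zic4 the neighbours went mostly the other way. Of the 10 nearest tested genes of chromosome 9, 1 rose and 6 fell. Falls were also the more frequent direction over the whole chromosome, where 95 of 1165 tested genes rose and 326 fell, or 36.1% in all. The phospholipid scramblase gene Plscr2 read 8.94, 8.35 and 8.77 on the knock-out arrays and 11.02, 11.06 and 10.98 on the wild-type arrays, and fell by 2.34 (SE 0.13, limma adjusted p = 2.6e-07). Adamts7, a secreted protease (−1.08), Plscr1 (−0.92), Rasgrf1 (−0.83), Plscr4 (−0.83) and Tbc1d2b (−0.76) fell too, and Ctsh, the gene of the lysosomal protease cathepsin H, rose by 2.16. The rows used for Plscr1, Adamts7 and Ctsh are not both preceded and followed by rows of chromosome 9 genes in the table. The row before is of chromosome 1 for Plscr1, 7 for Adamts7 and 9 for Ctsh. The Zic5 row used has rows of chromosome 11 on both sides. What RNA these rows read was not tested. The median of the brighter genes of chromosome 9 was −0.20, against 1.60 for Zic1.

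The closest relatives of the Zic genes, the Gli and Glis zinc finger genes, differed by less than Zic2, though Glis3 rose by more than Zic1 (1.60). Of 6 measured, 3 rose and 2 fell, with a median log2 difference of 0.22, against −0.01 for all genes. Over all genes, 14% rose and 17.6% fell. Glis3, known for its roles in pancreas and thyroid, read 11.20, 11.07 and 11.12 on the knock-out arrays and 9.19, 9.22 and 9.44 on the wild-type arrays. It rose by 1.85 (SE 0.08, limma adjusted p = 3.8e-08). Gli2 (+0.70) and Gli3 (+0.39), the main activator and repressor of Hedgehog signalling, rose, while Glis1 (−0.45) and Glis2 (−0.43) fell. Gli1, a standard target gene of Hedgehog signalling, was at 5.42 in knock-out and 5.37 in wild-type cells, under background in both, and did not pass (adjusted p = 0.64).

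Of 13 measured genes of the Hedgehog pathway other than Gli, 5 rose and 1 fell (median 0.12). Over all genes, 14% rose and 17.6% fell. In this list 4 genes were under background in both genotypes, among them Hhip, which is counted as a rise. The co-receptor Gas1 read 10.07, 10.38 and 10.29 on the knock-out arrays and 6.39, 6.27 and 6.44 on the wild-type arrays, and rose by 3.88 (SE 0.09, limma adjusted p = 3.4e-10). The co-receptor Boc (+2.33) and Disp1 (+0.91), which releases Hedgehog ligands, also rose. Ptch1, a receptor that is itself a target gene of the pathway, fell by 0.83. The ligand Shh was under background in both genotypes, at 5.02 in knock-out and 5.11 in wild-type cells.

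Genes whose proteins bind or regulate ZIC proteins, mostly known from work in cultured cells, were split. Of 8 measured, 2 rose and 2 fell (median −0.09), where 14% of all genes rose and 17.6% fell. Tcf7l2, a nuclear effector of Wnt signalling that human ZIC2 can inhibit, read 10.67, 10.75 and 10.69 on the knock-out arrays and 9.61, 9.51 and 9.62 on the wild-type arrays. It rose by 1.12 (SE 0.06, limma adjusted p = 2.9e-07). Mdfi, which holds Zic proteins in the cytoplasm, rose by 0.56, and Rnf180, a ubiquitin ligase for Zic2, fell by 0.39 at levels under background in both genotypes. The importin gene Kpna6 fell by 0.18 (adjusted p = 0.040) and was past the threshold in none of the fits that left out 1 array. Kpna1 (−0.22, adjusted p = 0.081), Dhx9 (−0.12, adjusted p = 0.17), Mbd3 (−0.05, adjusted p = 0.64) and Sp1 (−0.04, adjusted p = 0.70) did not pass.

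Genes reported as targets of ZIC factors did not move together. Of 7 measured, 2 rose and 1 fell (median 0.05), where 14% of all genes rose and 17.6% fell. In this list 3 genes lay under background in both genotypes. Epha4, a guidance receptor that Zic2 is known to regulate in dorsal spinal neurons, read 7.77, 7.98 and 7.79 on the knock-out arrays and 10.03, 10.25 and 10.17 on the wild-type arrays. It fell by 2.30 (SE 0.08, limma adjusted p = 9.3e-09). Apoe, whose human promoter ZIC1 and ZIC2 can bind, rose by 0.80 (adjusted p = 0.00013). Ephb1, which Zic2 induces in retinal ganglion cells, was under background at 5.05 in knock-out and 4.83 in wild-type cells. It rose by 0.22 (adjusted p = 0.038) and was past the threshold in only 1 of the 6 fits that left out an array. Atoh1, a granule cell factor that Zic1 can repress, and the serotonin transporter gene Slc6a4 were under background and did not pass (adjusted p = 0.34 and 0.25), nor did Drd1 (adjusted p = 0.70) or Nanog (adjusted p = 0.86).

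Markers of the dorsal neural tube, granule cell lineage and neural crest, in which Zic genes are known to act, were compared together with those of the ventral neural tube. The shares that passed were 26.7% for the dorsal, 27.8% for the granule cell, 50% for the ventral and 46.7% for the neural crest list. Of all genes 31.6% passed, 14% as higher and 17.6% as lower. Of 15 measured genes of the roof plate and dorsal neural tube, 3 rose and 1 fell (median −0.01), and 9 were under background in both genotypes. Bmp6 (+2.05), Bmp4 (+1.50), itself a gene of chromosome 14, and the roof plate ligand Gdf7 (+0.44) rose and the homeobox gene Msx2 fell by 0.79. Of 18 genes of the cerebellar granule cell lineage, 3 rose and 2 fell (median −0.01), and 13 were under background in both. Meis2 (+2.14) and the semaphorin gene Sema6a (+1.79) rose, while Meis1 (−2.25) and Pax6 (−1.69) fell, and Atoh1 and Barhl1 were under background in both genotypes. Of 10 genes of the floor plate and ventral neural tube, 1 rose and 4 fell (median −0.08), and 7 were under background in both, among them Nkx6-1, the 1 that rose. Foxa2 (−3.17), the guidance cue gene Ntn1 (−1.56) and Foxa1 (−1.38) fell, as did Nkx2-2 (−0.25, adjusted p = 0.038), which was under background in both genotypes and past the threshold in 2 of the 6 fits that left out an array. Of 15 neural crest genes 4 rose and 3 fell (median 0.01), and 5 were under background in both. Snai2 (+3.05), Sox9 (+2.56) and Id3 (+0.88) rose, while Ets1 fell by 0.92 and Msx2, also on this list, by 0.79.

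**Figure D4:**
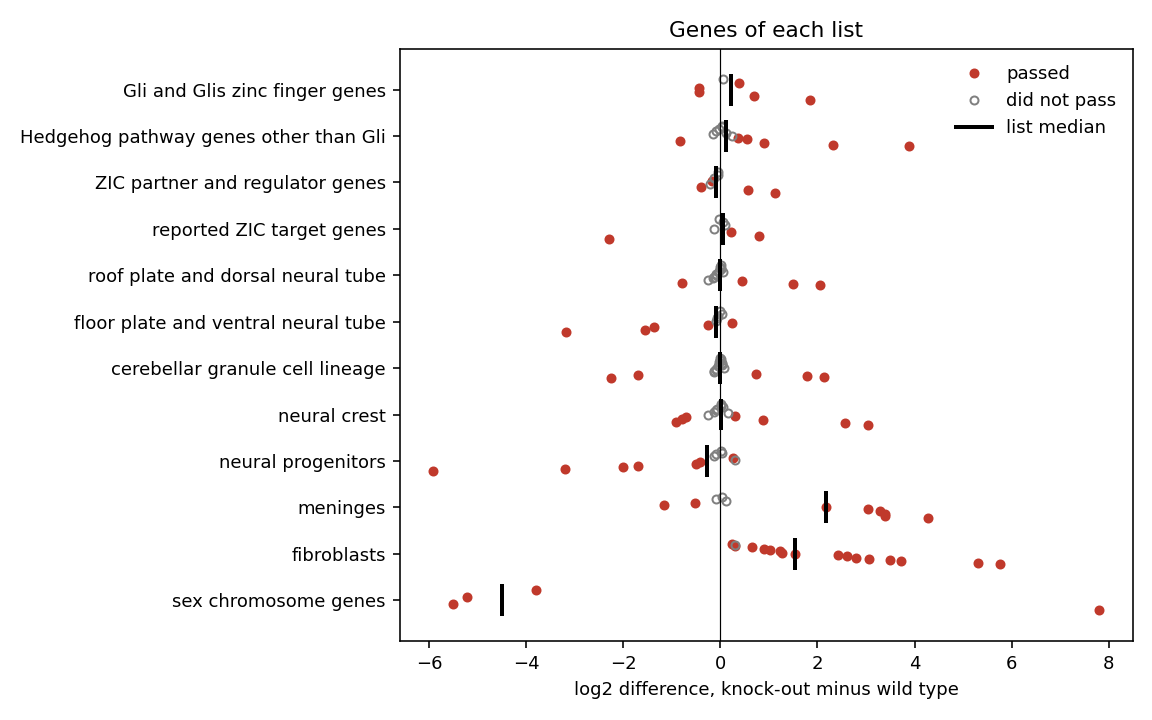
Log2 difference, knock-out minus wild type (horizontal axis), of each measured gene of 12 lists, filled where it passed limma at an adjusted p under 0.05 and open where it did not, with the list median as a bar. The fibroblast genes lie above 0 with a median of 1.54, and the dorsal neural tube and granule cell lists centre on −0.01.

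Neural progenitor markers and markers of meninges and fibroblasts differed between the same arrays as Zic2. Of 12 measured neural progenitor markers, 1 rose and 6 fell (median −0.27), where 14% of all genes rose and 17.6% fell. Their summed linear signal was 2535 to 2620 on the knock-out arrays and 6740 to 7484 on the wild-type arrays. Such a sum weighs bright genes most, and Sox2 (11.26) and Nes (10.73) were the brightest markers in wild-type cells. Sox2, a defining progenitor factor, was under background on every knock-out array (5.29, 5.54 and 5.21) and high on every wild-type array (11.17, 11.38 and 11.23). Nes fell by 2.01 and remained above background at 8.72 in knock-out cells. Of the 12 markers, 4 had a mean under background in knock-out cells, namely Sox2, Pax6, Sox1 and Prom1, and 1, Prom1, in wild-type cells.

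Of 11 meningeal markers, 6 rose and 2 fell (median 2.18), where 14% of all genes rose and 17.6% fell. Their summed signal was 11350 to 13408 on the knock-out arrays and 4424 to 5110 on the wild-type arrays. Ogn, the brightest in knock-out cells (12.67, against 9.29 in wild-type cells), weighed most in the knock-out sums. Foxc2 read 9.42, 9.81 and 9.51 on the knock-out arrays and 5.14, 5.34 and 5.41 on the wild-type arrays, and Foxc1, the forkhead factor needed for meninges to form, rose by 3.40 (limma adjusted p = 6.2e-10). The matrix gene Ogn rose by 3.39 and Foxd1 by 3.29, while Tbx18 fell by 1.16. Aldh1a2, the retinoic acid enzyme of meninges, and Slc6a13 were under background in both genotypes. Of 17 fibroblast markers, 16 rose and none fell (median 1.54), with Dcn as the 1 that did not pass (+0.30, adjusted p = 0.36). Their summed signal was 52579 to 54980 on the knock-out arrays and 16302 to 18238 on the wild-type arrays, and none was under background in knock-out cells. The part of these other cell type markers in the Zic differences was not tested. In such bulk samples more cells that express a gene and more RNA per cell cannot be told apart.

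The genes whose 6 values were most like those of a member were found by the Euclidean distance between log2 values after each gene's mean was subtracted, over 6 arrays. Nearest to Zic2 were Arhgdib, Rspo3, Svep1 and Gask1b, at distances of 0.43 to 0.46 and Pearson correlations of 0.997 or 0.998. Rspo3, a secreted amplifier of Wnt signalling, averaged 10.87 in knock-out and 5.88 in wild-type cells, a difference of 4.99 beside 5.13 for Zic2. Nearest to the Zic5 row used were Ifi27, the angiopoietin gene Angpt1, the prostacyclin synthase gene Ptgis and the potassium channel gene Kcnc2, at distances of 0.22 to 0.40. Nearest to Zic1 were Aoc3, the cartilage collagen gene Col2a1, Mrpl48 and Sec16b, at 0.24 to 0.31. With 2 genotypes of 3 arrays, this distance is set largely by the size of the genotype difference, and nothing is read from it about shared control. Within a distance of 1 lay 31 genes for Zic2, 81 for Zic5, 487 for Zic1 and 18416 for Zic4, whose nearest genes, Casd1, Xirp1, Fam187b and Slc22a5, differed by 0.10 or less between the genotypes.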

How the data were processed

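The authors' deposited table holds 1 log2 value per probe set and array, as judged from its range, for 3 knock-out and 3 wild-type samples. Partek is named with no version, per the submitters' processing notes. How the background was corrected, the arrays normalized and the probes summarized is not stated in those sources, and the deposited values were used as they stand. Genotype and replicate number came from the titles. Of 35556 probe sets 21789 had 1 gene symbol, and gene IDs tied 21698 of these to the RefSeq gene table of GRCm38.p6, used for chromosomes and gene order. Each gene was represented by its brightest probe set by the mean of 6 arrays, which left 19938 genes with no filter on low values.

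The genotypes were set against each other in limma 3.58.1 under R 4.3.3 (functions lmFit and eBayes), with Benjamini-Hochberg adjustment over all genes. A gene passed, rose or fell at an adjusted p under 0.05. The fit was tested on simulated data. The members and lists were chosen with earlier results of these data known, and lists are described without a set test. Named genes were the members, the 4 largest changes of each list and all genes of lists of 8 or fewer, 5 neighbours on each side of each Zic pair, the 4 genes most like each member, and Lgi1. Sox1, Prom1, Nkx6-1, Shh, Hhip, Tbx18, Aldh1a2, Slc6a13, Barhl1 and Dcn were added after their values were seen.

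For arrays of the same replicate number, the gene-wise deviations from each genotype's mean had correlations of 0.19 to 0.29 (3 pairs). For the others they were −0.18 to −0.0047 (6 pairs), in part because deviations cancel out within a genotype. Arrays of the same number thus shared some variation, the source of which the labels do not give. The main fit, which gave all calls, left the numbers out. A replicate block was an alternative, beside choices of normalization, probe set, chromosome medians, weights, moderation, filter and threshold, and each array left out. The rows of Zic4 and Zic5 that stand among genes of their own chromosome were an alternative added after the data were seen.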

Additional observations from a re-analysis of the deposited data

How the results depend on the processing

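The log2 differences of Zic1, Zic2 and Zic5 kept their sign under all 13 alternatives run for the members. The choice of row decided the values of Zic5 and Zic4. With the mean of all rows, Zic5 was 2.18 and Zic4 0.064, and with the rows standing among genes of their own chromosome they were 0.71 and 0.21. In that last fit both were past the threshold as higher, with Zic4 under background on every array. Leaving out 1 array at a time gave 1.52 to 1.74 for Zic1, 4.98 to 5.32 for Zic2, −0.13 to −0.01 for Zic4 and 3.56 to 3.80 for Zic5. It gave 5485 to 5803 genes called, 2442 to 2537 higher and 3012 to 3272 lower, 67 to 69 called list genes and 14 to 15 called neighbours. Requiring a 2-fold change left 1061 genes, 608 higher and 453 lower, with 42 list genes and 4 neighbours. With the replicate block 7000 genes passed, against 6296 without, and Zic2 stayed at 5.13. Lgi1 did not pass in the main fit (limma adjusted p = 0.075). It passed with the replicate block, with each array centred on its median, without wild-type replicate 1, and with an intensity trend and robust settings. Of the 73 named genes called, 46 kept the call under every alternative in which they were tested. Differences near 0 changed sign without passing. With 1 array left out at a time, 1700057G04Rik ranged from −0.073 to 0.014, Nanog from −0.064 to 0.026, Drd1 from −0.0011 to 0.095 and Slc22a5 from −0.083 to 0.011. With chromosome medians subtracted, 1700057G04Rik was 0.026, Gpr183 −0.048 and Timm8a2 −0.056. Signal over background limits Zic4 and the wild-type side of Zic1, Zic2 and the Zic5 row used.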
